A study of Mus musculus with 6 samples.

Results

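The miR-15/16 family was measured here as 9 rows of known mouse miRNAs: mmu-miR-15a-5p, mmu-miR-15b-5p, mmu-miR-15b-3p, mmu-miR-16-5p, mmu-miR-195a-5p, mmu-miR-497a-5p, mmu-miR-322-5p, mmu-miR-322-3p and mmu-miR-503-5p, written without the species prefix from here on. They were taken by name from a table of small RNA tag counts with 1573 rows of known miRNAs. All 9 were among the 616 miRNAs that passed the filter on low counts. The libraries came from total RNA of primary peritubular myoid cells of C57BL/6J mice, the contractile cells around the seminiferous tubules, cultured with fetal bovine serum. The 2 groups were cells without added peptide, called untreated (n = 3 libraries), and cells given 50 nM endothelin-1 (ET1), a peptide that contracts smooth muscle, for 5 min (n = 3 libraries). Whether each library had its own culture or animal is not in the labels, so a p-value here is set against a library-to-library spread that may be technical.

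A microRNA is cut from a hairpin precursor as a duplex of a 5p and a 3p strand. One strand, the guide, is kept in an Argonaute protein and pairs with mRNAs mainly through its seed, bases 2 to 8, while the other, the passenger, is usually degraded. Guides of the miR-15/16 family repress cyclins, cyclin-dependent kinases, CHEK1 and BCL2 and hold cells in the G1 phase. The human miR-15a and miR-16-1 pair is lost in many chronic lymphocytic leukaemias. miR-195 and miR-497 are known for the postnatal cell cycle exit of heart muscle, and miR-322 and miR-503, the first called miR-424 in human, for quiescence in differentiating muscle cells.

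The mature strands are shown first because the seed defines the family. The sequences are those of RefSeq for GRCm38.p6, with bases 2 to 8 in capitals, and all 9 members matched an entry. The 6 guides that share one seed are these.
miR-15a-5p: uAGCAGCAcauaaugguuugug
miR-15b-5p: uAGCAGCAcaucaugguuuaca
miR-16-5p: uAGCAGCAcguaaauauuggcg
miR-195a-5p: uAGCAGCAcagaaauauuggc
miR-497a-5p: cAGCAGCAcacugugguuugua
miR-322-5p: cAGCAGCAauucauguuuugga
The seed of miR-503-5p ends in another base, and those of the 2 opposite strands are unrelated to it.
miR-503-5p: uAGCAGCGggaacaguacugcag
miR-15b-3p: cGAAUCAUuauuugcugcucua
miR-322-3p: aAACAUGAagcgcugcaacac

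Beyond the seed the guides differ. Counted base by base from the 5′ end, miR-16-5p and miR-195a-5p were identical at 19 of 21 positions and miR-15a-5p and miR-15b-5p at 18 of 22. miR-16-5p and miR-497a-5p, which carry the same seed, were identical at 11 of 22 positions. miR-503-5p had the highest GC content of the 9 strands, 56.5%, and miR-15b-3p the lowest, 36.4%. How tags that match several members were assigned is not given in the sources used here, so the split between miR-16-5p and miR-195a-5p is uncertain. Of 1679 mature mouse miRNAs in RefSeq, 10 carry the shared seed; miR-195b, miR-6342, miR-6353 and miR-6419 are the 4 of them that were not analysed here.

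The members come from 4 places in the genome (GRCm38, 1-based; hosts on the same strand from GENCODE M21). On chromosome 14, miR-15a-5p (61632075 to 61632096, minus strand) lies in an intron of the noncoding gene Dleu2, and the Mir16-1 precursor (61631880 to 61631972) overlaps an exon of it. On the plus strand of chromosome 3, Mir15b (69009772 to 69009835) and Mir16-2 (69009902 to 69009996) lie in an intron of Smc4, a condensin subunit needed for mitotic chromosomes. Mir497 (70234717 to 70234800) and Mir195a (70235042 to 70235135) lie on the plus strand of chromosome 11, 241 bases apart, and no host gene is annotated there. Mir503 (53053984 to 53054054) and Mir322 (53054255 to 53054349) lie on the minus strand of the X chromosome, 200 bases apart, also without an annotated host. The mature miR-16-5p is the same from chromosomes 3 and 14, so its tags cannot be assigned to either.

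Libraries held 18127265 to 20895432 tags. Known miRNAs made up 30.1% to 45.6% of the tags in untreated and 22.6% to 25.5% in ET1 libraries, and rRNA fragments 3.22% to 5.63% and 7.12% to 11.0%. Among cell type markers, all 3 smooth muscle miRNAs were detected. Their summed levels were 20373 to 27753 CPM in untreated and 12968 to 15539 CPM in ET1 libraries. Most of this sum was miR-143-3p, with means of 22508 CPM in untreated and 11793 CPM in ET1 libraries. The groups overlapped for miR-145a-5p (2619 and 2431 CPM), while the scarce miR-145a-3p was lower with ET1 (21.3 and 6.32 CPM). The 2 endothelial markers, the arms of miR-126a, summed to 1107 to 1884 and 114 to 163 CPM, and the 4 leukocyte markers to 236 to 324 and 36.4 to 40.6 CPM. The lower leukocyte sum came from miR-150-5p alone, with means of 271 CPM in untreated and 24.7 CPM in ET1 libraries. The other leukocyte rows were scarce and had higher means in ET1 libraries: miR-223-3p (8.88 and 10.9 CPM), miR-142a-3p (0.572 and 2.08 CPM) and miR-142a-5p (0.404 and 0.884 CPM). The 2 red cell markers summed to 48.9 to 673 and 38.3 to 304 CPM, the 6 epithelial and Sertoli markers to 1003 to 1562 and 692 to 2010 CPM, and the 6 germ cell markers to 404 to 1223 and 687 to 4726 CPM. Most of the highest germ cell sum was miR-871-3p, which stood at 4445, 149 and 1171 CPM in ET1 libraries 1 to 3. Of the 6 germ cell rows, 4 had higher and 2 had lower fitted levels with ET1. Of the 6 epithelial and Sertoli rows, 4 had lower fitted levels (the miR-200 and miR-141 rows) and 2 had higher ones (the arms of miR-202). No marker was at 0 in all libraries; miR-144-3p of red cells was at 0 in the untreated libraries. The part of these differences in the values that follow was not tested, and in bulk RNA fewer cells of a type and less RNA per cell cannot be told apart.

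None of the 9 members passed the test, edgeR's quasi-likelihood test with Benjamini-Hochberg adjustment over 616 miRNAs at 0.05; 3 had an unadjusted p under 0.05, all with lower levels in ET1 libraries, and 2 passed in DESeq2's Wald test. Over all miRNAs 1.79% passed (0.487% as lower), and 18.3% had an unadjusted p under 0.05 (8.93% as lower). Levels are CPM, tag counts relative to the known miRNA tags of the library, scaled by edgeR's trimmed mean of M values (TMM), and need no length correction since the strands are 21 to 23 bases long. The fitted log2 fold change, ET1 over untreated, was negative for 8 members and positive for 1, with a median of −0.47, against 49.5% negative and a median of 0.0058 over all miRNAs. With library sizes alone in place of TMM, 5 members were negative and 4 positive, with a median of −0.10, while the median of all miRNAs moved to 0.37. With all small RNA rows fitted together all 9 were negative, with a median of −0.98, and the median of the known miRNAs was −0.46.

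**Figure D1:**
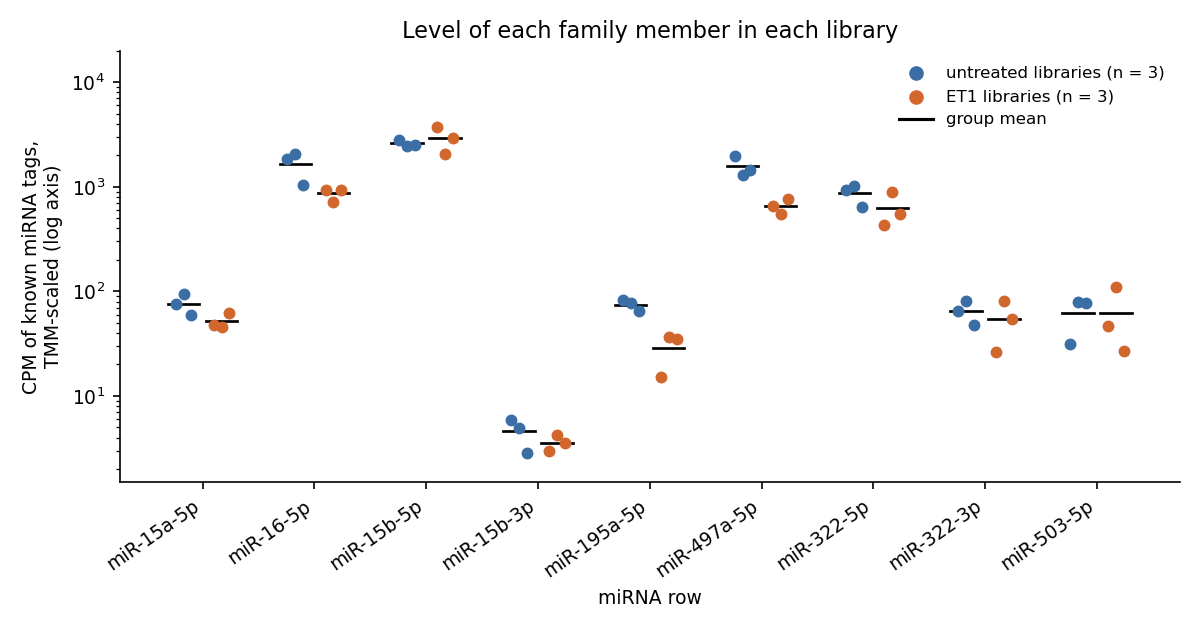
TMM-scaled CPM of each member (log axis) in the 3 untreated and 3 ET1 libraries, with the group means as lines. Only for miR-16-5p, miR-195a-5p and miR-497a-5p do all ET1 libraries lie below all untreated ones, and miR-15b-5p is the highest row in every library.

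The chromosome 11 pair had the lowest fold changes of the family. miR-497a-5p stood at 1979, 1308 and 1458 CPM in untreated libraries 1 to 3 and at 657, 550.0 and 771 CPM in ET1 libraries 1 to 3. Every ET1 library lay below every untreated one. Its means were 1582 ± 352 and 659 ± 110 CPM (SD, n = 3 each), 2.40-fold lower with ET1 (log2 fold change −1.26, SE 0.35), and it missed the threshold (edgeR adjusted p = 0.079).

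miR-195a-5p, cut from the neighbouring hairpin, stood at 82.0, 76.8 and 64.9 CPM in untreated and at 15.2, 36.4 and 34.8 CPM in ET1 libraries. The groups did not overlap here either, and ET1 library 1 was the lowest. The fitted difference was 2.59-fold lower with ET1 (log2 fold change −1.37, SE 0.47; edgeR adjusted p = 0.11). In DESeq2's Wald test miR-497a-5p (−1.29, adjusted p = 0.036) and miR-195a-5p (−1.41, adjusted p = 0.046) both passed. Of the 597 miRNAs that DESeq2 gave an adjusted p, 6.53% passed and 2.51% passed as lower. miR-497a-5p also passed in edgeR without the filter on low counts (−1.34; adjusted p = 0.046), where 2.70% passed and 1.10% passed as lower.

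miR-16-5p, the member with copies on 2 autosomes, stood at 1827, 2070 and 1035 CPM in untreated and at 941, 718 and 931 CPM in ET1 libraries. The ET1 libraries lay below the untreated ones, with untreated library 3 close to them. The fitted difference was 1.90-fold lower (log2 fold change −0.93, SE 0.36; edgeR adjusted p = 0.18). These 3 rows were the members without overlap between groups, all lower in ET1 libraries, where 11.0% of all miRNAs were lower without overlap. By library size alone miR-16-5p overlapped between groups, while miR-497a-5p and miR-195a-5p did not; 5.03% of all miRNAs were then lower without overlap.

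miR-15b-5p, the most abundant member, stood at 2807, 2482 and 2520 CPM in untreated and at 3731, 2071 and 2933 CPM in ET1 libraries. The ET1 libraries spread on both sides of the untreated ones. Its log2 fold change was 0.16 (SE 0.33; edgeR adjusted p = 0.84), −0.081 without ET1 library 1 and −0.34 with all rows fitted together. The opposite strand, miR-15b-3p, was the scarcest member, with 17 to 42 tags in untreated and 16 to 20 in ET1 libraries. Its means were 4.58 ± 1.57 and 3.58 ± 0.613 CPM (fitted log2 difference −0.36, SE 0.51; edgeR adjusted p = 0.75), and its sign turned with library sizes alone (0.021).

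miR-15a-5p, from the Dleu2 gene, stood at 76.2, 93.3 and 59.6 CPM in untreated and at 47.4, 46.1 and 62.0 CPM in ET1 libraries. ET1 library 3 lay within the untreated range and the other two below it. The log2 fold change was −0.56 (SE 0.42; edgeR adjusted p = 0.50).

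The X chromosome rows varied widely within groups. miR-322-5p stood at 924, 1019 and 647 CPM in untreated and at 433, 884 and 554 CPM in ET1 libraries, which overlapped (log2 fold change −0.47, SE 0.38; edgeR adjusted p = 0.54). Its opposite strand, miR-322-3p, stood at 65.0, 80.7 and 47.8 CPM and at 26.5, 81.2 and 54.1 CPM (fitted log2 difference −0.26, SE 0.49; edgeR adjusted p = 0.83). In both arms ET1 library 2 was the highest and ET1 library 1 the lowest of the ET1 libraries. The sign of miR-322-3p turned with library sizes alone (0.11) and without ET1 library 1 (0.042).

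miR-503-5p stood at 31.2, 79.5 and 76.9 CPM in untreated and at 47.0, 110.8 and 26.7 CPM in ET1 libraries, so the lowest and the highest value were both in ET1 libraries. Its log2 fold change of −0.024 (SE 0.57; edgeR adjusted p = 0.99) ran from −0.78 without ET1 library 2 to 0.35 without ET1 library 3. The difference was smaller than the spread between libraries.

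**Figure D2:**
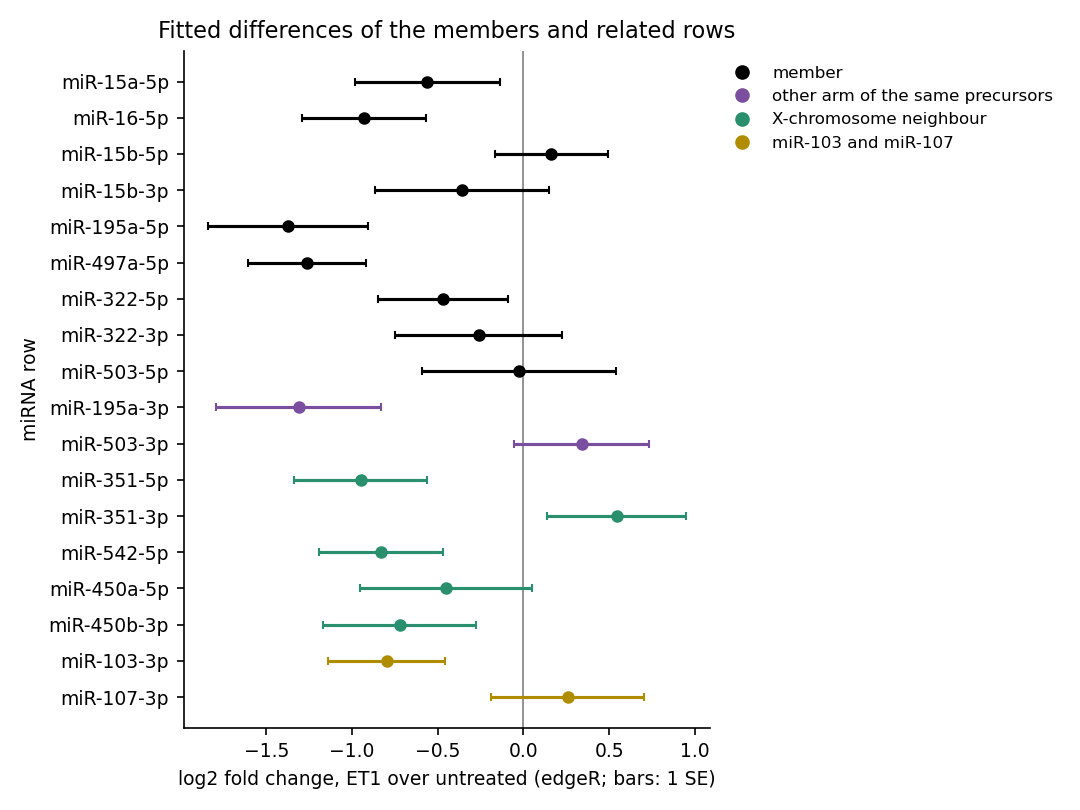
Fitted log2 fold change (ET1 over untreated, edgeR) of the 9 members, of the other arms from their precursors, of X chromosome neighbours and of miR-103 and miR-107, with bars of 1 SE. The lowest values are those of miR-195a-5p (−1.37), miR-195a-3p (−1.31) and miR-497a-5p (−1.26), and miR-351-3p is the highest (0.54).

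**Figure D3:**
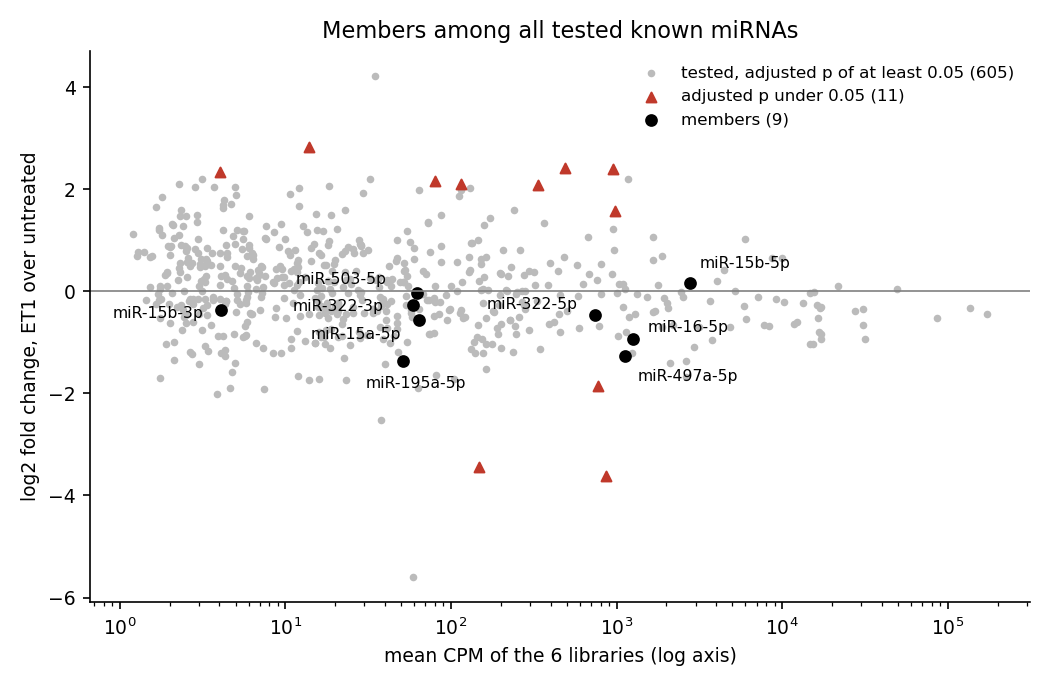
Log2 fold change (ET1 over untreated) against the mean CPM of the 6 libraries (log axis) for the 616 tested miRNAs, with the 11 that passed as triangles and the members as black points. The members lie among the miRNAs that did not pass, with miR-497a-5p, miR-195a-5p and miR-16-5p on the lower side.

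The order of levels was alike in part. In untreated libraries miR-15b-5p was followed by miR-16-5p and miR-497a-5p, which did not differ beyond their spread, and then by miR-322-5p. In ET1 libraries the ranges of miR-16-5p and miR-497a-5p, and of miR-497a-5p and miR-322-5p, overlapped. The rows miR-15a-5p, miR-195a-5p, miR-322-3p and miR-503-5p lay close together in untreated libraries, with means of 62.5 to 76.4 CPM and overlapping neighbours. In ET1 libraries miR-195a-5p, at 28.8 ± 11.8 CPM (SD, n = 3), was below the other three by mean and did not overlap with miR-15a-5p.

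Together the 9 rows held 0.681%, 0.589% and 0.565% of the known miRNA tags in untreated libraries and 0.678%, 0.486% and 0.634% in ET1 libraries. These shares overlapped. After TMM scaling the sums were 6975 ± 965 and 5257 ± 706 CPM (SD, n = 3 each) and the groups just missed each other, at 5913 CPM in the lowest untreated and 5900 CPM in the highest ET1 library.

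The make-up of the family needs no library scaling. miR-15b-5p held 36.0%, 34.4% and 42.6% of the family's tags in untreated libraries and 63.2%, 46.0% and 54.6% in ET1 libraries, without overlap. miR-497a-5p held 25.4%, 18.1% and 24.7% in untreated and 11.1%, 12.2% and 14.4% in ET1 libraries, also without overlap. miR-16-5p held 17.5% to 28.7% in untreated and 15.9% to 17.3% in ET1 libraries, narrowly without overlap. The scarcer miR-195a-5p held 1.05%, 1.06% and 1.10% in untreated and 0.258%, 0.808% and 0.647% in ET1 libraries, without overlap as well. miR-322-5p held 10.9% to 14.1% in untreated and 7.33% to 19.6% in ET1 libraries, and its ranges overlapped. A rise of one share lowers the others and a fall raises them, so these differences do not stand apart from each other. By TMM-scaled CPM the groups overlapped for miR-15b-5p. On that scale 23.5% of all miRNAs were without overlap in either direction. The same figure was not computed for shares, and the shares were not tested.

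**Figure D4:**
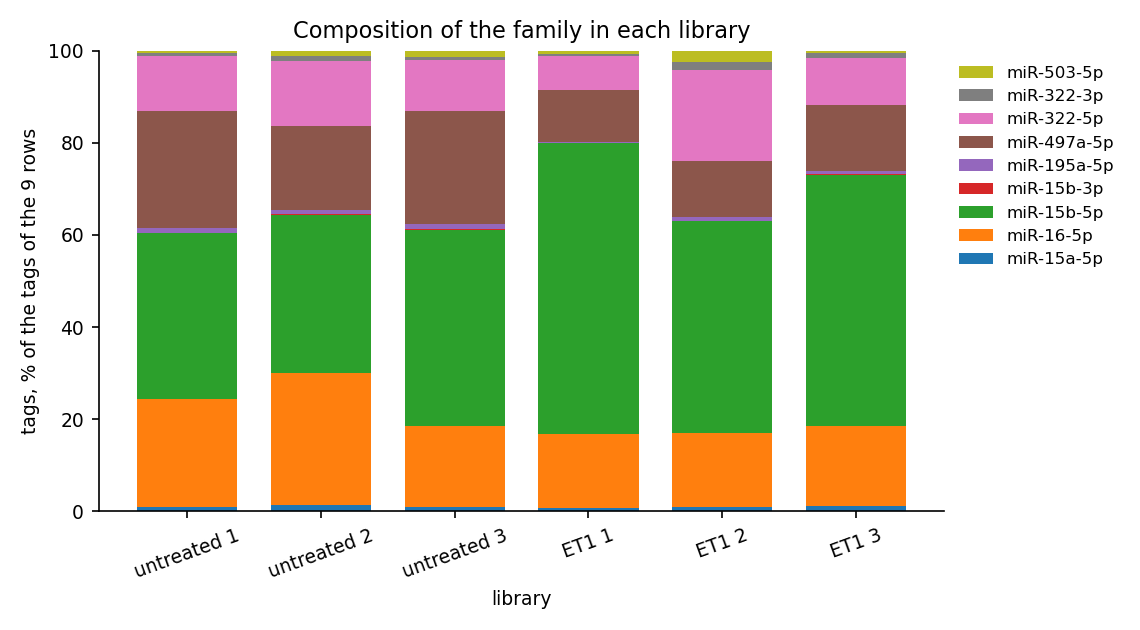
Tags of each member as a percentage of the tags of the 9 rows, 1 bar per library. miR-15b-5p takes 34.4% to 42.6% of the untreated bars and 46.0% to 63.2% of the ET1 bars, and miR-497a-5p a smaller part of each ET1 bar than of any untreated bar.

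Ratios of 2 rows within a library compared the loci and the arms. Of 6 ratios none passed; 0.1 is the smallest two-sided p that an exact permutation test allows with 3 libraries against 3. The ratio of miR-15a-5p, made from Dleu2, to miR-15b-5p, made from Smc4, was 0.0272, 0.0376 and 0.0237 in untreated and 0.0127, 0.0223 and 0.0212 in ET1 libraries. The ET1 libraries were lower without overlap, by 0.67 on the log2 scale (mean log2 ratio −5.78 ± 0.45 with ET1 and −5.11 ± 0.34 without, SD, n = 3 each; exact permutation p = 0.1, adjusted 0.6).

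Within the chromosome 11 locus, miR-195a-5p to miR-497a-5p was 0.0414, 0.0587 and 0.0446 in untreated and 0.0233, 0.0663 and 0.0452 in ET1 libraries (exact permutation p = 0.9, adjusted 0.9). The ranges overlapped, and the lowest and the highest ratio were both in ET1 libraries. On the X chromosome, miR-322-5p to miR-503-5p was 29.6, 12.8 and 8.41 in untreated and 9.19, 7.98 and 20.7 in ET1 libraries (exact permutation p = 0.6, adjusted 0.84). miR-322-5p to miR-16-5p was 0.506, 0.492 and 0.625 in untreated and 0.460, 1.23 and 0.595 in ET1 libraries (exact permutation p = 0.7, adjusted 0.84), and ET1 library 2 alone was above 1.

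The ratio of miR-16-5p to miR-15b-5p was computed after its values were seen and has no test. The Smc4 intron holds hairpins of both, and miR-16-5p has a further copy in Dleu2. It was 0.651, 0.834 and 0.411 in untreated and 0.252, 0.347 and 0.318 in ET1 libraries. Each ET1 library lay below each untreated one, with mean log2 ratios of −1.72 ± 0.24 and −0.72 ± 0.52 (SD, n = 3 each).

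By tag counts, the use of the 5p and the 3p arm differed widely between precursors. Hairpins of some of them are given here, with the mature strands in capitals and the 5p strand first.
Mir15b: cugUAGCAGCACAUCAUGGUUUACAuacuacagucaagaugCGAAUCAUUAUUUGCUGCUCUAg
Mir195a: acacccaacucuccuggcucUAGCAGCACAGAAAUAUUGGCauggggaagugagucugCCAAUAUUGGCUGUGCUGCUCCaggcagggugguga
Mir322: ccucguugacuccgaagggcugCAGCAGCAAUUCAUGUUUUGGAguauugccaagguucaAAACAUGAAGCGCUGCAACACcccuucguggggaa
Mir503: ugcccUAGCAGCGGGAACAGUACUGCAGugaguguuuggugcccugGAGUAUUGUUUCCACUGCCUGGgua

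At Mir15b the 5p strand held 99.8% to 99.9% of the tags of both arms in the 6 libraries. Its excess over the 3p strand was 468, 494 and 858 in untreated and 1203, 478 and 815 in ET1 libraries (exact permutation p = 0.6, adjusted 0.84). At Mir322 the excess was 14.2, 12.6 and 13.5 in untreated and 16.3, 10.9 and 10.2 in ET1 libraries (exact permutation p = 0.5, adjusted 0.84). The 3p strand of Mir322 was thus a regular minor product, and that of Mir15b a trace.

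At Mir503 the listed order was the other way round. miR-503-3p, the strand opposite to the family guide, had 1179, 1510 and 916 tags in untreated and 800, 1232 and 1508 in ET1 libraries, against 221, 561 and 458 and 250, 524 and 152 for miR-503-5p. The 3p strand was the higher one in all 6 libraries, by up to 9.89-fold. Its log2 fold change was 0.34 (SE 0.39; edgeR adjusted p = 0.70). The strand with the seed close to the family's held 9.16% to 33.3% of the tags listed for this precursor. Whether these counts reflect arm use or the assignment of tags was not tested.

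At Mir195a the 5p strand held 67.8% to 71.0% of the tags in untreated and 48.8%, 84.7% and 67.8% in ET1 libraries. miR-195a-3p had a level of 32.3 ± 1.32 CPM in untreated and 13.0 ± 5.60 CPM in ET1 libraries (SD, n = 3 each; fitted log2 difference −1.31, SE 0.48; edgeR adjusted p = 0.14), and its groups did not overlap. Both arms of this precursor thus had negative fold changes. Mir497 gave 42442 tags of the 5p strand and 2 of the 3p strand over all libraries, and Mir15a 2377 and 26. miR-16-1-3p had 0 tags and miR-16-2-3p 9, too few to compare the 2 loci of miR-16-5p by their passenger strands.

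**Figure D5:**
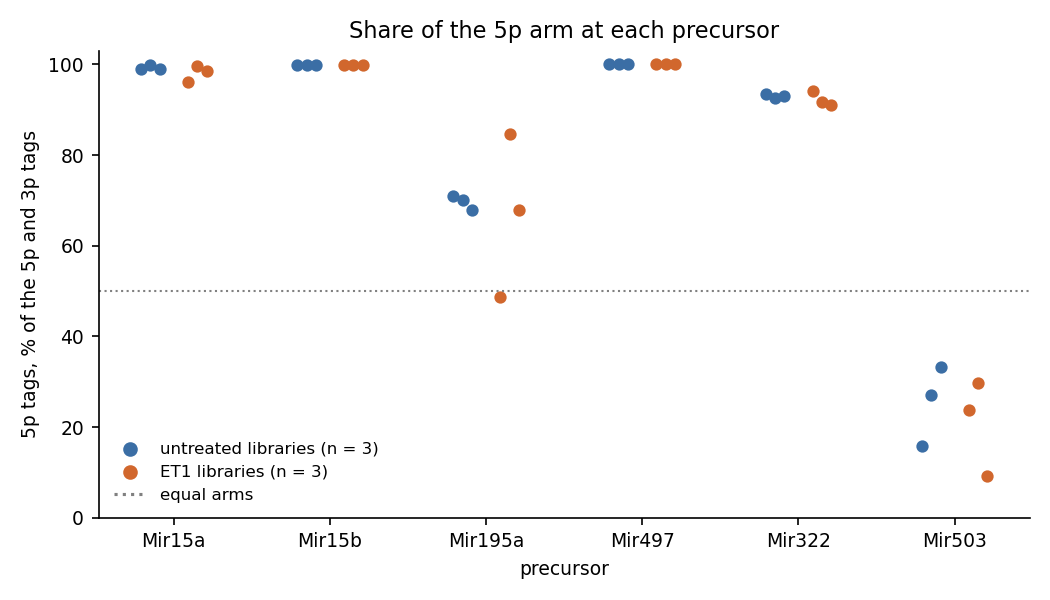
Tags of the 5p arm as a percentage of the 5p and 3p tags of each precursor, 1 point per library. Mir15a, Mir15b and Mir497 lie at 96.2% or more, Mir195a ranges from 48.8% to 84.7%, and Mir503 from 9.16% to 33.3%.

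Other miRNAs of the X chromosome cluster lie beyond Mir503 on the same strand. Of 9 arms listed for miR-351, miR-542, miR-450a and miR-450b, 5 were tested and none passed in edgeR or DESeq2. In edgeR 2 had an unadjusted p under 0.05, against 18.3% of all miRNAs. Log2 fold changes were negative for 4 and positive for 1, against 49.5% negative over all miRNAs. miR-351-5p, the most abundant of the cluster, averaged 4962 ± 937 CPM in untreated and 2569 ± 1395 CPM in ET1 libraries (SD, n = 3 each; log2 fold change −0.95, SE 0.39; edgeR adjusted p = 0.20). Its other arm, miR-351-3p, averaged 322 ± 49.8 and 470 ± 198 CPM (fitted log2 difference 0.54, SE 0.41; edgeR adjusted p = 0.50). miR-542-5p was lower in each ET1 library than in any untreated one, as were 11.0% of all miRNAs. It stood at 318 ± 31.9 CPM in untreated and 179 ± 20.3 CPM in ET1 libraries (fitted log2 difference −0.83, SE 0.36, edgeR adjusted p = 0.24).

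miR-103-3p and miR-107-3p carry AGCAGC 1 base nearer the 5′ end than the family does, and are often counted with it as a superfamily. miR-103-3p stood at 1452 ± 349 CPM in untreated and 836 ± 84.4 CPM in ET1 libraries (SD, n = 3 each; log2 fold change −0.80, SE 0.34; edgeR adjusted p = 0.22), without overlap. miR-107-3p, at 6.04 ± 1.22 and 7.24 ± 1.06 CPM, overlapped (fitted log2 difference 0.26, SE 0.45; edgeR adjusted p = 0.81).

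A list of other miRNAs known to restrain the cell cycle, of the let-7, miR-34, miR-449, miR-26, miR-29, miR-101, miR-124 and miR-193 families, had 21 tested rows of 23. None passed in edgeR, where 10 had an unadjusted p under 0.05, against 18.3% of all miRNAs. miR-34b-5p and miR-449a-5p, which are also in the germ cell marker list, passed as higher in DESeq2, where 6.53% of the miRNAs with an adjusted p passed. In edgeR 15 log2 fold changes were negative and 6 positive, with a median of −0.38. Over all miRNAs 49.5% were negative, with a median of 0.0058. Every let-7 row of the list and miR-98-5p, of the same family, was among the negative ones. let-7f-5p was the lowest (−1.37, SE 0.41; edgeR adjusted p = 0.086) and miR-449a-5p the highest (1.99, SE 0.57; edgeR adjusted p = 0.086).

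Over the 6 libraries, which share their scaling and differ in depth, Pearson's r of log2 CPM was positive for 25 of 36 pairs of members, and each negative pair held miR-15b-5p or miR-503-5p. It ran from −0.86, for miR-15b-5p and miR-322-3p, to 0.93, for miR-15a-5p and miR-16-5p. It was 0.92 for the arms of Mir322, −0.34 for the arms of Mir15b and 0.38 for miR-322-5p and miR-503-5p. It was 0.83 for miR-195a-5p and miR-497a-5p, both lower in every ET1 library than in any untreated one. Each r includes the difference between the groups, and r within groups was not computed. The miRNAs outside the family most like miR-15b-5p, the most abundant member, were miR-871-3p (r = 0.95), miR-218-5p (0.94), miR-222-3p (0.93), miR-412-5p (0.92) and miR-154-5p (0.92). All 5 were highest in ET1 library 1, as miR-15b-5p was.

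The authors' deposited table compared counts pooled over the libraries of each group, and did not model how libraries of a group vary. By the authors' deposited table, 7 of the 9 members had a q-value under 0.05, 5 as lower and 2 as higher, where 70.2% of 1327 rows with a q-value did. In the authors' deposited table the log2 ratio was −0.91 for miR-497a-5p, −1.05 for miR-195a-5p and −0.60 for miR-16-5p. It was 0.52 for miR-15b-5p and 0.28 for miR-503-5p in the authors' deposited table, the rows listed as higher with a q-value under 0.05. miR-322-3p was also listed as higher in the authors' deposited table, at 0.037 with a q-value of 0.15. Tags assigned to the Rfam precursor family of mir-16 were counted apart. Before scaling they numbered 298, 350 and 158 in untreated and 143, 90 and 149 in ET1 libraries. Relative to all tags (RPM) they stood at 14.3, 18.4 and 7.63 in untreated and 7.89, 4.64 and 7.64 in ET1 libraries. On that scale the groups overlapped.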

How the data were processed

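Small RNA libraries followed the BGI protocol and RNA was extracted with TRNzol, per the labels' protocols. Bowtie2 and mm10 are named, without an aligner version, per the submitters' processing notes. Tag counts were deposited for 61628 rows, with an RPM beside each count (headed TPM; the count relative to the tags of all rows), which was not tested. Their second deposited table gives counts summed by group, group means of the RPM, a log2 ratio and p-values and q-values, with settings not given in the sources used here; its log2 ratio exceeds that of its pooled counts by a constant.

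The test of known miRNAs (mature and hairpin rows) used edgeR 4.0.16 (R 4.3.3): default expression filter, TMM, robust quasi-likelihood, treatment as the single term, two-sided, Benjamini-Hochberg adjustment. The procedure was tested on simulated data with planted changes larger than the difference of any member. That check does not show how often differences of the members' size would be found. Each member's library values are TMM-scaled CPM. Ratios used log2 of counts plus 0.5 and two-sided exact permutation, adjusted over 6 ratios. Named rows were the members, the other arms of their precursors, X chromosome neighbours, rows sharing the seed, and the 5 rows most correlated with the most abundant member; cell cycle and cell type marker lists were summarised, and the few of their rows named were chosen after their values were seen. Members, lists and tests were chosen with earlier results of these data known. Alternatives were other scalings (DESeq2 1.42.0 size factors, library sizes), filters (none, 10 CPM in 3 libraries), DESeq2's Wald test, all small RNA rows together without the 4 totals, a replicate block, a pseudocount of 5 and leaving out each library.

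Depth was 4381927 to 8651018 known miRNA tags per library, so counting error is small for the abundant members. It is largest for miR-15b-3p and matters more for other scarce rows. These include miR-195a-5p (81 tags in ET1 library 1), miR-322-3p (141 in ET1 library 1) and miR-503-5p (152 in ET1 library 3). Among the other arms, miR-195a-3p had 31 tags in ET1 library 2. Within groups, library pairs were further apart than sampling alone gives (chi-square statistic over its degrees of freedom 336 to 1212), and each library counted as 1 sample.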

Additional observations from a re-analysis of the deposited data

How the results depend on the processing

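No member passed in any of the 6 edgeR fits without 1 library, with DESeq2 size factors, library sizes alone, the filter of 10 CPM in 3 libraries (which left out miR-15b-3p) or all rows together. Without a filter 1 member passed (miR-497a-5p, −1.34) and in DESeq2's Wald test 2 (miR-497a-5p, −1.29; miR-195a-5p, −1.41); the cause was not tested. Without 1 library, miR-497a-5p ran from −1.40 to −1.06, miR-195a-5p from −1.61 to −1.09, miR-16-5p from −1.16 to −0.74, miR-15a-5p from −0.72 to −0.40, miR-322-5p from −0.84 to −0.29, miR-15b-3p from −0.59 to −0.11, miR-15b-5p from −0.081 to 0.33, miR-322-3p from −0.72 to 0.042 and miR-503-5p from −0.78 to 0.35, the last at 0.19 without untreated library 2, 0.19 without untreated library 3 and 0.13 without ET1 library 1. Signs turned with library sizes alone for miR-15b-3p (0.021), miR-322-3p (0.11) and miR-503-5p (0.31), with the filter of 10 CPM for miR-503-5p (0.058) and with all rows together for miR-15b-5p (−0.34); the cause was not tested.

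The family sum differed by −0.41 on the log2 scale (−0.52 to −0.30 without 1 library), by −0.038 with library sizes alone and by −0.67 per tag of all rows. Among ratios, the difference for miR-195a-5p over miR-497a-5p ran from −0.56 to 0.20 (0.20 without ET1 library 1), for miR-322-5p over miR-503-5p from −0.78 to 0.15 (0.15 without untreated library 1), and for miR-322-5p over miR-16-5p from −0.040 (without ET1 library 2) to 0.67.

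The number of known miRNAs that passed, 11, was 41 with library sizes alone, 37 without a filter, 39 in DESeq2's Wald test and 0 in edgeR with all rows together (116 at an unadjusted p under 0.05); it ran from 2 (without ET1 library 3) to 30 (without ET1 library 1) with 1 library left out, at 5 without untreated library 2 and 25 without untreated library 3. The labels number the libraries 1 to 3 in both groups but do not say that a number marks a shared culture. Deviations of same-numbered libraries correlated at 0.28, 0.060 and 0.25, each library best with its own number, as a hint from the data. With a replicate block 21 known miRNAs passed and no member did (miR-497a-5p −1.25, edgeR adjusted p = 0.056).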
